A study of Mus musculus with 98 samples.

Results

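Interferon-stimulated genes are the genes that cells switch on when interferons, the cytokines of antiviral defence, bind their receptors. A list of 39 such genes was followed through single innate lymphoid cells (ILCs), the tissue-resident lymphocytes that lack antigen receptors, from mouse intestine. All 39 genes were found by symbol among the 23420 genes of the deposited tables, by name and not by their values. The study set regenerated R9-ILCs, derived from pluripotent stem cells, beside natural WT-ILCs. R9-ILCs were CD45.2+GFP+Lin-CD127+ cells taken from the intestine of Rag2-/-Il2rg-/- recipients 3 weeks after transplantation, hosts that lack T, B and natural killer cells of their own. WT-ILCs were CD45.2+Lin-CD127+ cells from the intestine of wild-type C57BL/6 mice aged 8 weeks, with no transplantation named. R9 titles came in 2 series whose meaning the labels do not give: 32 titles carry no suffix, called unsuffixed here, and 35 carry the suffix 1, called suffixed here. The 31 WT columns were reduced to 22 WT cells by averaging columns with a Pearson r above 0.8 over their shared genes, and 8 of the WT cells combine several columns. WT-ILC-32 also includes the column titled WT-ILC-16-2 and a column of number 32 that matches no title exactly. No animal was named, so each set of cells counted as 1 sample and no test was possible. Every difference below describes these cells and has no replicate check.

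Type I interferons (interferon alpha and beta) bind the receptor of Ifnar1 and Ifnar2. The kinases Jak1 and Tyk2 then activate signal carriers, among them Stat2, that bind DNA together with Irf9 at the interferon-stimulated response element. Interferon gamma binds Ifngr1 and Ifngr2 and acts through the gamma-activated site. In the intestine both pathways limit viruses and intracellular bacteria.

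RefSeq promoter sequences (GRCm38.p6) were matched for 30 of the 39 members. The core of the response element is a pair of GAAA runs with any 2 bases between them. Read on both strands, it lay within 250 bases upstream of the start in 14 of those 30 members (46.7%) and in 3.46% of 27025 genes. The gamma-activated site is TTC and GAA with any 3 bases between them and reads the same on both strands. It lay there in 8 of the 30 members (26.7%) and in 8.13% of genes. Stretches of 6 members are shown 5′ to 3′ on the gene's own strand, with the response element core in capitals (in Irf1, the gamma-activated site). Igtp and Bst2 were seen in most cells, Irf1 carries a gamma-activated site, and Isg15 dominated single cells. Ifit1 was seen in 1 cell and Rsad2 in none, although both promoters hold the core. The Igtp stretch is chr11:58199476-58199535 on the plus strand and that of Bst2 is chr8:71537583-71537612 on the minus strand. The Irf1 stretch is chr11:53769904-53769963 on the plus strand and that of Isg15 is chr4:156200859-156200918 on the minus strand. The Ifit1 stretch is chr19:34640769-34640828 on the plus strand and that of Rsad2 is chr12:26456533-26456592 on the minus strand.
Igtp: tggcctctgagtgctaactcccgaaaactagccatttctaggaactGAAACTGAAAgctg
Bst2: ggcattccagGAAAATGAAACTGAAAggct
Irf1: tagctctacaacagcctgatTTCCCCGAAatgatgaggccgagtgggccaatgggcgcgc
Isg15: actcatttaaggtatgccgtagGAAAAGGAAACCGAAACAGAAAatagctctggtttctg
Ifit1: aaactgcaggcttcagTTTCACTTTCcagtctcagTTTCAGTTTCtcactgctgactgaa
Rsad2: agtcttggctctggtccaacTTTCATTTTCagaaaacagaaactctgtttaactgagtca
The Igtp and Bst2 stretches also hold a gamma-activated site, left in lower case in Igtp and overlapping the core in Bst2. The core stands once in the Igtp stretch, in overlapping copies in Bst2 and Isg15, and on the other strand, as TTTC runs, in Ifit1 and Rsad2. A match describes letters only and does not show that a factor bound there.

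The deposited values are TPM, transcript abundances per length scaled to one total per column. The unit allows for gene length, but failed estimates and dominant genes, both given below, limit comparisons of level between genes in these cells. TPM keeps no depth, and the count of genes detected at 1 TPM was used in its place. Its median was 2082.5 genes in unsuffixed R9 cells (range 1187 to 2989), 2429 in suffixed R9 cells (1913 to 6042) and 2092.5 in WT cells (793 to 7518). More than 4000 genes were detected in 4 suffixed R9 cells and 2 WT cells. The sets also differed at low values: a median of 6.75% of a cell's detected genes lay under 10 TPM in unsuffixed R9 cells, against 35.1% in suffixed R9 cells and 32.1% in WT cells. Detection is therefore given at 1 TPM ("seen"), also at 10 TPM for the members seen most, and at both levels for all members in the plot of shares of cells. An exact 0 can be a failed estimate, since Gapdh, which every cell uses, was seen in 8 of 32 unsuffixed R9 cells, 34 of 35 suffixed R9 cells and 12 of 22 WT cells. Genes are therefore described as listed at 0. The ILC markers Id2, Il7r and Il2rg, 3 of a list of 8 ILC core markers, were seen in every cell. The others were less regular. A median of 6 of the 8 was seen per unsuffixed R9 cell, 5 per suffixed R9 cell and 5 per WT cell. WT-ILC-29 and WT-ILC-17 held 3 each, and Zbtb16 was listed at 0 in every WT cell. The list was low in some cells named below. It summed to 83.5 TPM in WT-ILC-24 and 111.5 TPM in WT-ILC-29 (WT median 2340 TPM). In R9-ILC-1-1 it summed to 322.9 TPM (suffixed R9 median 8177 TPM).

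A typical cell of each set held few of the 39 genes. The median was 7 members seen in unsuffixed R9 cells (range 2 to 13), 7 in suffixed R9 cells (3 to 21) and 6.5 in WT cells (0 to 14). The means were 6.88 ± 2.76 members in unsuffixed R9 cells, 8.34 ± 4.68 in suffixed R9 cells and 6.59 ± 3.13 in WT cells (SD over cells), which differ by less than the spread between cells. At 10 TPM the median was 6 members in unsuffixed R9 cells, 4 in suffixed R9 cells and 4 in WT cells. Per 1000 detected genes the medians were 2.97, 2.92 and 2.76 members in unsuffixed R9, suffixed R9 and WT cells. Cells with more detected genes held more members. Across cells Pearson's r was 0.56 (Spearman's rho 0.54) in the 32 unsuffixed R9 cells, 0.92 (0.58) in the 35 suffixed R9 cells and 0.85 (0.85) in the 22 WT cells. These coefficients describe cells only, and depth enters both axes.

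**Figure D1:**
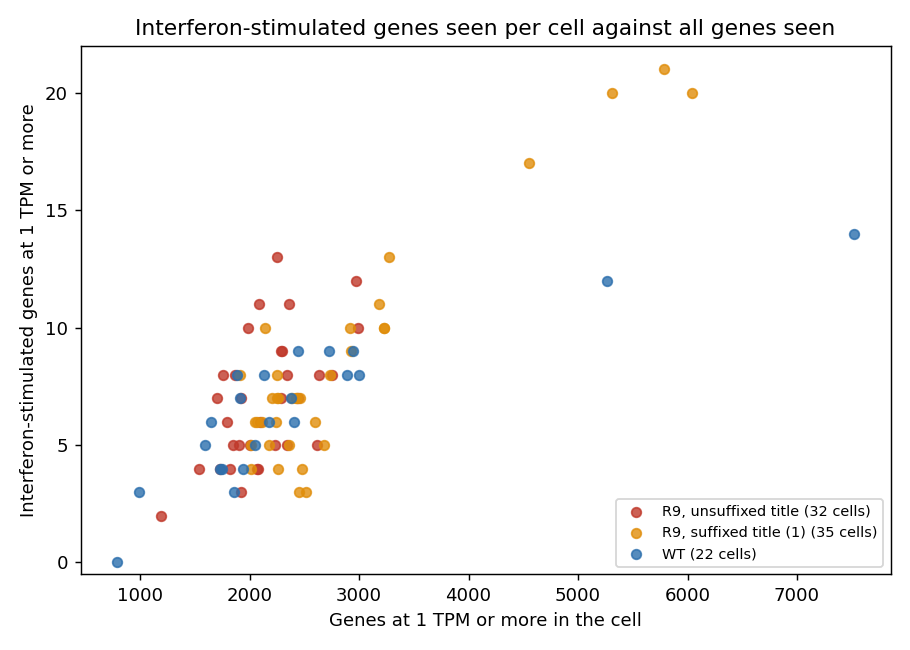
Interferon-stimulated genes at 1 TPM or more in each cell (y axis) against all genes at 1 TPM or more (x axis), 1 point a cell, coloured by set. The 4 suffixed R9 cells with 17 to 21 members are the 4 with more than 4000 genes, and most other cells of the 3 sets share 1 cloud between 3 and 13 members.

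Over all cells of a set, 33 of the 39 genes were seen in unsuffixed R9 cells, 33 in suffixed R9 cells and 26 in WT cells. The R9 series together showed 37 members. These sets hold 32, 35, 22 and, for both R9 series, 67 cells, and a rare gene is more easily missed in fewer cells. The same count over all genes was not made, so these counts are not read as a difference between sets. Mx1, a GTPase that blocks influenza virus, and Rsad2 (viperin), which makes a chain-terminating nucleotide, were listed at 0 in all 89 cells. The plot of levels by cell shows a few broad rows, a thin scatter elsewhere and an almost empty block of antiviral effectors.

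**Figure D2:**
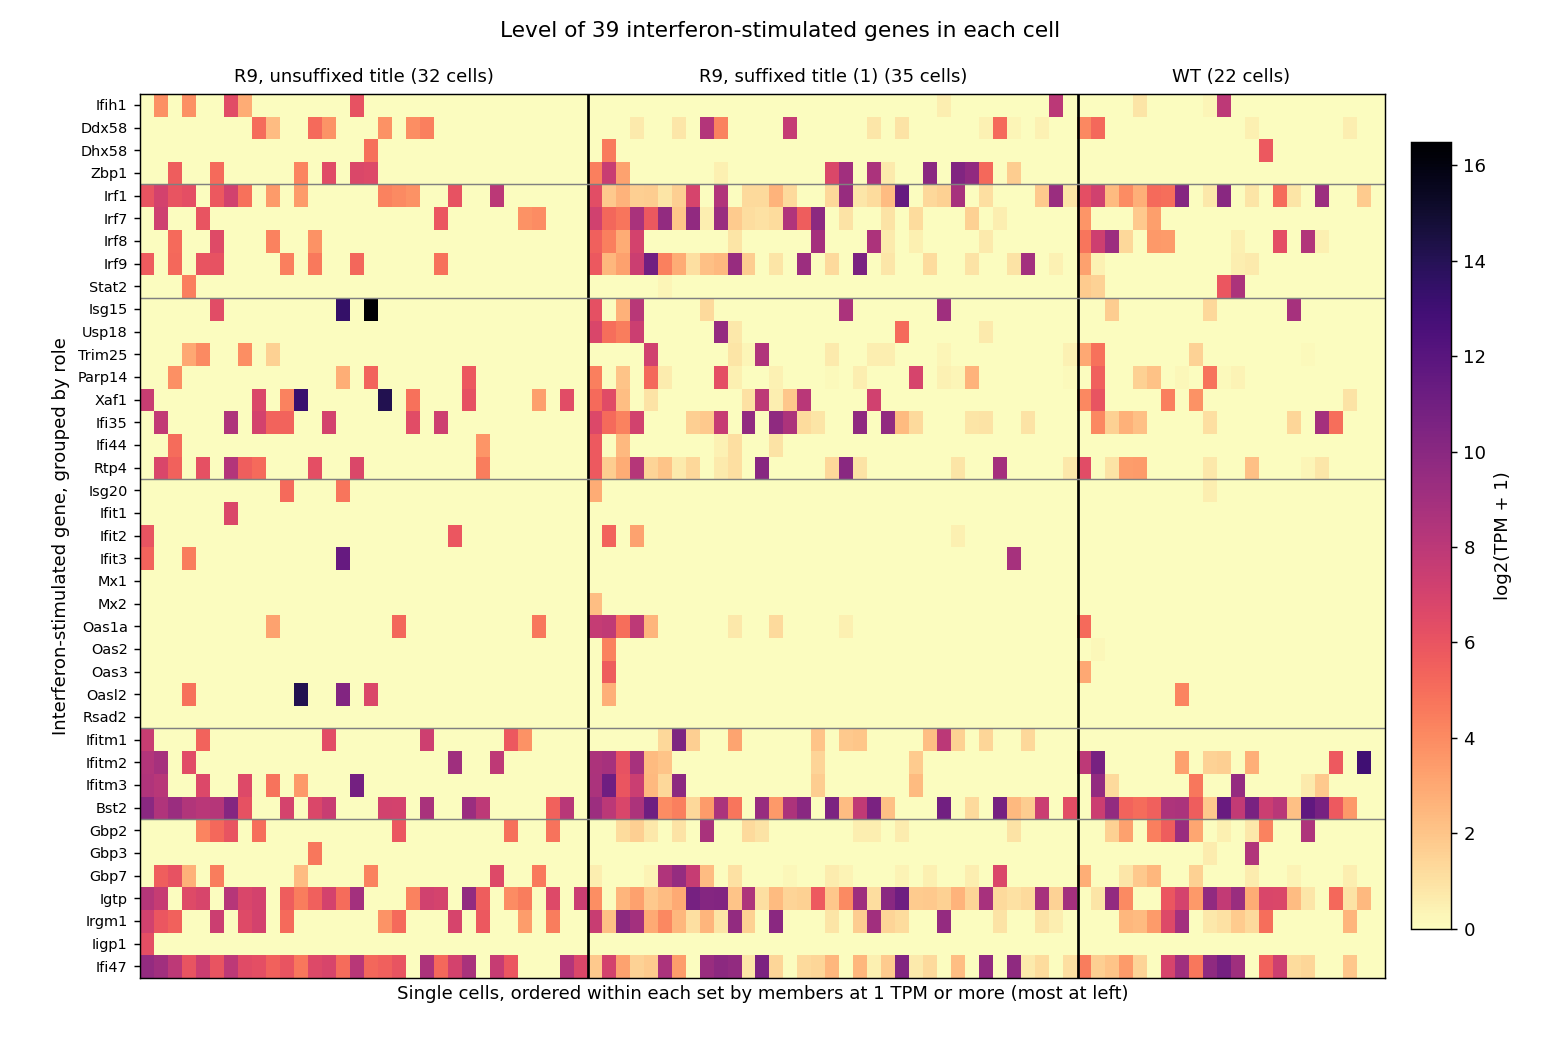
Level of each of the 39 genes (rows, grouped by role) in each cell (columns) as log2(TPM + 1), with cells of each set ordered by the number of members at 1 TPM or more. Bst2, Igtp and Ifi47 form rows across all 3 sets, single dark boxes mark Isg15, Xaf1 and Oasl2 in a few unsuffixed R9 cells, and Mx1 and Rsad2 are blank.

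In unsuffixed R9 cells the summed TPM of the 39 genes rested on very few cells. The sum averaged 5597 ± 16863 TPM in unsuffixed R9 cells, 2233 ± 1377 in suffixed R9 cells and 1780 ± 2118 in WT cells (SD over cells), while the medians were 743.9, 1907 and 697.3 TPM in unsuffixed R9, suffixed R9 and WT cells. Sums ran from 55.3 to 91832 TPM in unsuffixed R9 cells, from 134.4 to 6448 TPM in suffixed R9 cells and from 0 to 8001 TPM in WT cells, so the ranges overlapped widely. Without the 4 highest cells of each set the mean was 928.6 TPM in unsuffixed R9, 1895 TPM in suffixed R9 and 992.5 TPM in WT cells. A single cell held 51.3% of the sum over unsuffixed R9 cells, against 8.25% for the highest suffixed R9 cell and 20.4% for the highest WT cell. Genes outside the list took large shares of single cells too. The 2 largest shares of a cell's TPM in 1 gene were 44.3% and 43.6% in unsuffixed R9 cells (Ifngr1 in R9-ILC-35, Fabp1 in R9-ILC-19). They were 19.3% and 4.01% in suffixed R9 cells (both Hba-a1) and 28.9% and 18.0% in WT cells (Atp5k and Calml4). The part of such dominance in the sums was not tested. Sums of 1000 TPM or more were reached by 11 of 32 unsuffixed R9 cells (34.4%, exact 95% interval 18.6 to 53.2), 29 of 35 suffixed R9 cells (82.9%, 66.4 to 93.4) and 10 of the 22 WT cells (45.5%, 24.4 to 67.8). All such intervals cover counting error among cells only. The suffixed R9 series thus had the smallest share of its sum in 1 cell. Its interval for sums of 1000 TPM or more overlaps that of WT cells only at its edge. Means of 48.8% of all genes were also higher in suffixed R9 than in WT cells by a log2 ratio of 1 or more. Sums of other gene lists of this size were not counted, so the gap is not read as particular to these genes.

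The 4 cells above 10000 TPM were all unsuffixed R9 cells and together held 85.5% of that series' sum. R9-ILC-4 had 91832 TPM, of which 99.6% was Isg15, the ubiquitin-like protein that is coupled to other proteins after interferon, followed far behind by Oasl2 (104.9 TPM) and Zbp1 (95.4 TPM). R9-ILC-33 had 27796 TPM, made mostly of Oasl2 at 18252 TPM and Xaf1 at 9458 TPM. R9-ILC-10 had 18134 TPM, of which Xaf1 gave 17908 TPM. R9-ILC-37 had 15348 TPM, with Isg15 at 11221 TPM, Ifit3 at 2807 TPM and Oasl2 at 1223 TPM. None of them was rich in members: R9-ILC-4 held 7 of the 39 genes, R9-ILC-33 held 8, R9-ILC-10 held 6 and R9-ILC-37 held 7. The epithelial marker list summed to 72701 TPM in R9-ILC-33, where the median of its series was 317.0 TPM, and its part in the level was not tested.

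Other cells carried many members at moderate levels. R9-ILC-16 held 13 members with a sum of 3476 TPM, led by Bst2 (972.6 TPM) and Ifi47 (739.6 TPM) and including Ifit2, Ifit3, Irf9 and Iigp1, R9-ILC-30 held 12, and R9-ILC-13 and R9-ILC-40 held 11 each. The macrophage and dendritic marker list summed to 3920 TPM in R9-ILC-16 and 2441 TPM in R9-ILC-30, the highest values of their series, and its part in the count was not tested. Among suffixed R9 cells most members were found in R9-ILC-1-1 (21 members, 5787 genes), R9-ILC-21-1 (20 members, 6042 genes) and R9-ILC-27-1 (20 members, 5310 genes). The erythroid list summed to 194563 TPM in R9-ILC-1-1, 40336 TPM in R9-ILC-21-1 and 37860 TPM in R9-ILC-27-1 (series median 94.1 TPM). The epithelial list summed to 6522 TPM in R9-ILC-1-1, 12710 TPM in R9-ILC-21-1 and 1049 TPM in R9-ILC-27-1 (series median 29.4 TPM). The part of both lists was not tested. The highest sums of suffixed R9 cells lay elsewhere, in R9-ILC-14-1 with 6448 TPM from 6 members (Irf1 2901, Igtp 2243 and Ifi47 1263 TPM), R9-ILC-6-1 with 4637 TPM and R9-ILC-23-1 with 4521 TPM.

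Among WT cells the sum was highest in WT-ILC-24 (8001 TPM, of which Ifitm2 gave 7994 TPM), a cell of 991 genes with 76865 TPM of epithelial markers. WT-ILC-25-2 followed with 5886 TPM, mainly from Bst2, Ifi47 and Irf1, and WT-ILC-14 with 3982 TPM, 82.2% of it Bst2. The WT cells with most members were WT-ILC-2-2 (14 members, 7518 genes) and WT-ILC-29 (12 members, 5261 genes), followed by WT-ILC-9, WT-ILC-27-2 and WT-ILC-30-2 with 9 each. Bst2 was the highest of the 39 genes in 12 unsuffixed R9 cells, 7 suffixed R9 cells and 14 WT cells.

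**Figure D3:**
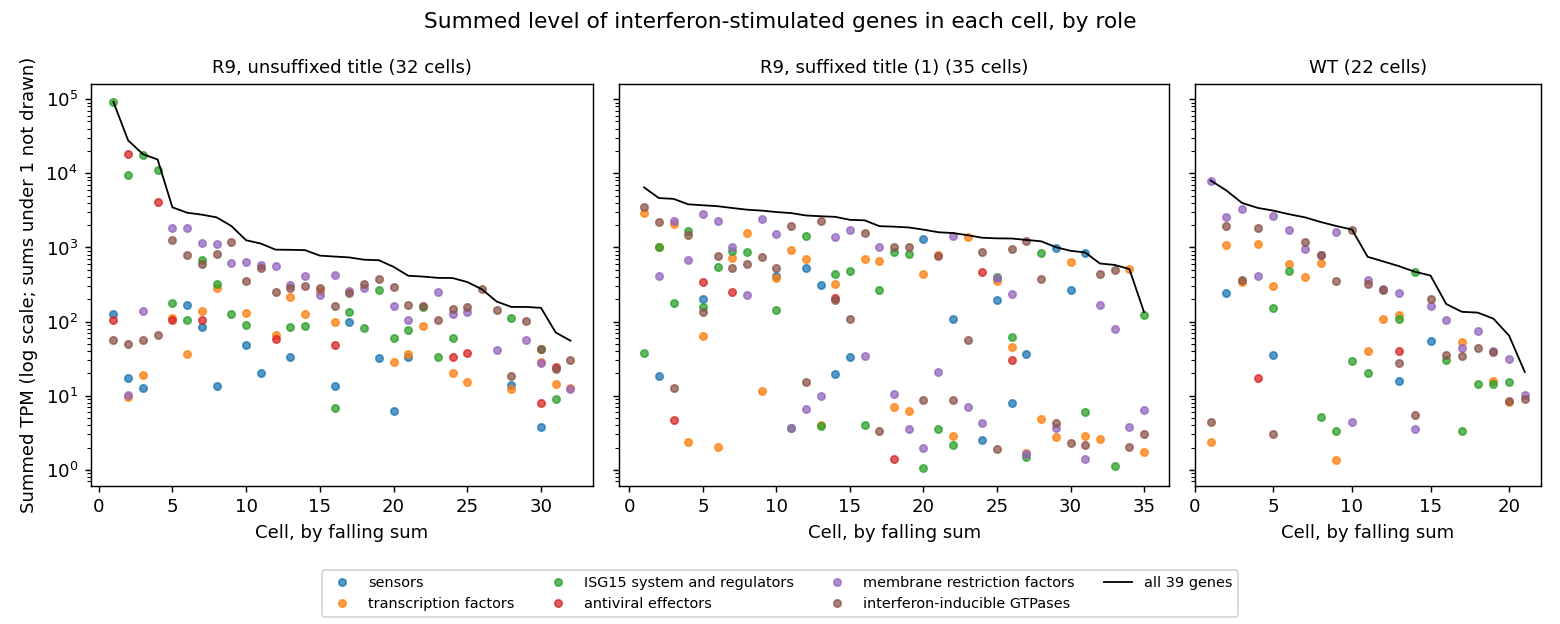
Summed TPM of each role (points) and of all 39 genes (line) in each cell on a log scale, with cells of each set ranked by falling sum. The line falls steeply after the 4 leading unsuffixed R9 cells, where Isg15, Xaf1 and Oasl2 dominate, and runs flatter across the suffixed R9 cells. The WT cell with a sum of 0 is not drawn.

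Ratios between sets are log2((mean TPM + 1)/(mean TPM + 1)) and were called at 1 or more in size among genes with a mean of at least 1 TPM in either set. The R9 and WT tables were normalized separately, so a ratio of R9 over WT is set across tables. Between unsuffixed R9 and WT cells 33 of the 39 members passed the filter. Higher in unsuffixed R9 were 15 of the 33 (45.5%), where 26.6% of all 9956 genes were, and lower were 7 (21.2%), where 44.5% of all genes were. The median ratio was 0.55 over those members and -0.67 over all genes. Of the 15, 7 were listed at 0 in every WT cell (Zbp1, Ifitm1, Ifi44, Ifit1, Ifit2, Ifit3 and Iigp1) and have no fold. These 7 passed the filter through unsuffixed R9 cells alone. A mean of at least 1 TPM beside 0 gives a ratio of at least 1, so their call as higher was fixed. How many of all higher genes were listed at 0 in every WT cell was not counted. The 7 thus have no background to be read against, and the 45.5% is not read as an excess. Without the 4 cells above 10000 TPM, an alternative chosen after seeing the data, 13 of 32 members were higher (40.6%, against 27.2% of all genes) and 9 lower (28.1%, against 43.9%).

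Between suffixed R9 and WT cells 31 members passed. Higher in suffixed R9 were 17 (54.8%), close to the 48.8% of 10395 genes that were, and lower were 5 (16.1%), against 20.4% of all genes. The median ratio was 1.27 over those members and 0.94 over all genes. Of the 17, 6 were listed at 0 in every WT cell (Zbp1, Ifitm1, Ifi44, Ifit2, Ifit3 and Usp18), again without a count over all higher genes. Their call as higher was fixed by the filter in the same way. So was the call as lower of Gbp3, listed at 0 in every suffixed R9 cell. Both comparisons use the same WT cells and are not independent.

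Between the R9 series, 16 of 32 members (50.0%) were lower in unsuffixed R9 cells than in suffixed R9 cells, where 64.9% of 10321 genes were, and 8 (25%) were higher, where 16.1% of genes were. The 8 were Isg15, Isg20, Xaf1, Oasl2, Ifit1, Ifit2, Ifit3 and Iigp1, each seen in 9 unsuffixed R9 cells or fewer. Of these, Ifit1 and Iigp1 were listed at 0 in every suffixed R9 cell, so their call was fixed by the filter. The same holds for Usp18 and Oas3, called lower and listed at 0 in every unsuffixed R9 cell. Without the 4 cells above 10000 TPM 3 of 31 members were higher (9.68%, now below the 15.9% of all genes) and 19 lower (61.3%, against 64.1%).

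Among the sensors of nucleic acid, Zbp1 (chr2:173206612-173218923), which recognises left-handed nucleic acids and can trigger necroptosis, was the one seen in R9 cells and in no WT cell. It was seen in 6 of 32 unsuffixed R9 cells (18.8%, 7.21 to 36.4), 11 of 35 suffixed R9 cells (31.4%, 16.9 to 49.3) and 0 of the 22 WT cells (interval up to 15.4%). Where seen, its lowest, median and highest levels were 17.3, 66.7 and 102.9 TPM in unsuffixed R9 cells and 2.28, 180.8 and 1285 TPM in suffixed R9 cells. The interval of suffixed R9 cells lies above that of WT cells, and that of unsuffixed R9 cells overlaps it. Among cells of up to 4000 genes Zbp1 was seen in 8 of 31 suffixed R9 and 0 of 20 WT cells, for which no interval was computed. At 10 TPM Zbp1 was counted in 6 unsuffixed R9, 9 suffixed R9 and 0 WT cells, and the WT interval then meets both. Between the R9 series its ratio, unsuffixed over suffixed, was -3.30.

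The RNA helicases were rarer. Ddx58 (RIG-I) was seen in 7 unsuffixed R9, 4 suffixed R9 and 2 WT cells and averaged 4.01 ± 9.07 TPM in unsuffixed R9, 16.2 ± 61.9 TPM in suffixed R9 and 2.36 ± 8.08 TPM in WT cells. Ifih1 (MDA5), which binds long double-stranded RNA, was seen in 5 unsuffixed R9, 1 suffixed R9 and 1 WT cell, with highest values of 84.3 TPM in unsuffixed R9, 262.7 TPM in suffixed R9 and 241.3 TPM in WT cells. Dhx58 (LGP2), a helper of both helicases, was seen in 1 cell of each set. Any sensor was seen in 16 unsuffixed R9 cells (50.0%, 31.9 to 68.1), 16 suffixed R9 cells (45.7%, 28.8 to 63.4) and 4 WT cells (18.2%, 5.19 to 40.3), with overlapping intervals.

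Among the transcription factors, Irf9 and Irf7 had the widest gaps in detection at 1 TPM between suffixed R9 and WT cells of all 39 members. They are the extremes of the list. How many of all genes had gaps or ratios as wide was not counted, and 48.8% of all genes were called higher in suffixed R9 cells. Irf7 (chr7:141262706-141266481), which drives the interferon alpha genes, was seen in 5 of 32 unsuffixed R9 cells (15.6%, 5.28 to 32.8), 18 of 35 suffixed R9 cells (51.4%, 34 to 68.6) and 3 of the 22 WT cells (13.6%, 2.91 to 34.9). Its highest values were 152.7 TPM in unsuffixed R9, 926.8 TPM in suffixed R9 and 11.5 TPM in WT cells, and 1 unsuffixed R9, 7 suffixed R9 and 0 WT cells reached 100 TPM. The means were 9.41 ± 30.2 TPM in unsuffixed R9, 122.5 ± 265 TPM in suffixed R9 and 1.04 ± 3.03 TPM in WT cells. The Irf7 intervals of suffixed R9 and WT cells meet at their edges. Among cells of up to 4000 genes it was seen in 14 of 31 suffixed R9 and 2 of 20 WT cells. At 10 TPM Irf7 was counted in 5 unsuffixed R9, 11 suffixed R9 (31.4%, 16.9 to 49.3) and 1 of the 22 WT cells (4.55%, 0.115 to 22.8), and the intervals overlap. The ratio to WT was 2.35 for unsuffixed R9 and 5.92 for suffixed R9 cells (1.91 and 6.01 without the highest cell of each set).

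Irf9 (chr14:55603571-55610030), the DNA-binding partner of Stat2, was seen in 8 of 32 unsuffixed R9 cells (25%, 11.5 to 43.4), 17 of 35 suffixed R9 cells (48.6%, 31.4 to 66.0) and 1 of the 22 WT cells (4.55%, 0.115 to 22.8). The unsuffixed R9 cells that held it ran from 20.2 to 67.0 TPM, and the suffixed ones from 1.06 to 2022 TPM with a median of 8.61 TPM. The lone WT value was 8.46 TPM, in WT-ILC-2-2 with its 7518 genes. Among cells of up to 4000 genes Irf9 was seen in 13 of 31 suffixed R9 and 0 of 20 WT cells. At 10 TPM Irf9 was counted in 8 unsuffixed R9, 8 suffixed R9 and 0 WT cells, and the 3 intervals overlap. Its ratio to WT was 2.94 for unsuffixed R9 and 6.81 for suffixed R9 cells. Irf7 and Irf9 were seen together in 2 of the 32 unsuffixed R9 cells and 12 of the 35 suffixed R9 cells.

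The other factors showed no such order. Irf1 (chr11:53770014-53778374), an early target of interferon gamma, was seen in 14 unsuffixed R9, 23 suffixed R9 and 12 WT cells, and at 10 TPM in 12 unsuffixed R9, 7 suffixed R9 and 9 WT cells. It averaged 29.6 ± 56.3 TPM in unsuffixed R9, 150.1 ± 510 TPM in suffixed R9 and 141.6 ± 331 TPM in WT cells, and 55.2% of the suffixed R9 sum came from R9-ILC-14-1 at 2901 TPM. Irf8, a factor of myeloid and lymphoid development, was seen in 4 unsuffixed R9, 6 suffixed R9 and 8 WT cells, with highest values of 90.3 TPM in unsuffixed R9, 473.5 TPM in suffixed R9 and 612.5 TPM in WT cells. Its ratio to WT was -3.29 for unsuffixed R9 and -0.86 for suffixed R9 cells. Stat2, the signal carrier of type I and III interferon, was seen in 1 unsuffixed R9, 0 suffixed R9 and 4 WT cells, and 1 WT cell at 392.5 TPM held 86.4% of the WT sum.

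**Figure D4:**
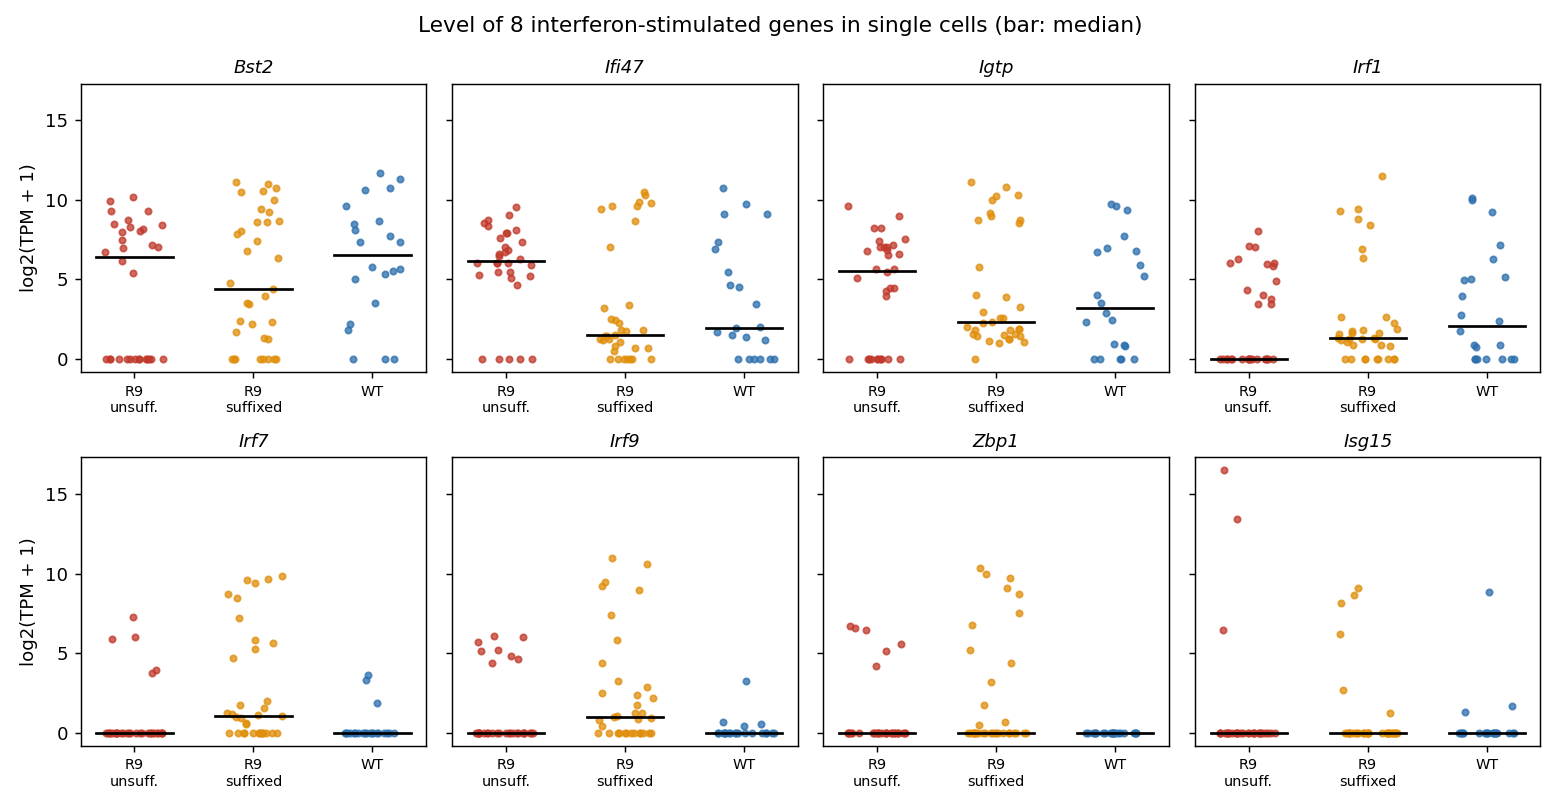
Levels of 8 members in single cells as log2(TPM + 1), with unsuffixed R9, suffixed R9 and WT cells from left to right and a bar at each median. Irf7 and Irf9 form an upper group of points in suffixed R9 cells that WT cells lack, Ifi47 lies at 24.1 to 739.6 TPM in the 27 unsuffixed R9 cells that held it, and Isg15 rests on single cells.

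In the ISG15 system and among the other regulators, single cells set the means. Isg15 (chr4:156199424-156200818) was seen in only 3 of 32 unsuffixed R9 cells (91506, 11221 and 85.7 TPM), 6 of 35 suffixed R9 cells (1.37 to 541.3 TPM) and 3 of the 22 WT cells (458.8, 2.24 and 1.46 TPM). The share was 9.38% in unsuffixed R9 (1.98 to 25), 17.1% in suffixed R9 (6.56 to 33.6) and 13.6% in WT cells (2.91 to 34.9), with intervals that overlap almost entirely. The mean of 3213 ± 16233 TPM in unsuffixed R9 cells is 364.7 TPM without R9-ILC-4. The ratio of unsuffixed R9 to WT was 7.19, and it was -2.44 without the 4 cells above 10000 TPM. Usp18, the protease that removes Isg15 and dampens the type I receptor, was seen in 6 suffixed R9 cells (20.9 to 739.9 TPM), was listed at 0 in all unsuffixed R9 and all WT cells, and 4 of those 6 cells had more than 4000 genes.

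Xaf1, which antagonises the apoptosis inhibitor XIAP, was seen in 9 unsuffixed R9, 8 suffixed R9 and 4 WT cells, with highest values of 17908 TPM in unsuffixed R9, 268.2 TPM in suffixed R9 and 63.2 TPM in WT cells. Its ratio to WT was 7.15 for unsuffixed R9 and 1.94 for suffixed R9 cells. Without the 4 cells above 10000 TPM the unsuffixed R9 ratio to WT was 1.60, and the ratio between the R9 series, unsuffixed over suffixed, was -0.34 in place of 5.21. Ifi35, an induced partner of Nmi, was seen in 8 unsuffixed R9, 15 suffixed R9 and 8 WT cells and at 10 TPM in 8 unsuffixed R9, 10 suffixed R9 and 3 WT cells. Its WT mean of 24.8 TPM is 2.84 TPM without WT-ILC-22-1. Leaving out each set's highest cell moved its ratio to WT from 0.55 to 2.81 for unsuffixed R9 and from 2.26 to 4.72 for suffixed R9 cells.

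Rtp4, a chaperone of membrane receptors, was seen in 9 unsuffixed R9, 12 suffixed R9 and 4 WT cells, and at 10 TPM in 9 unsuffixed R9, 5 suffixed R9 and 1 WT cell. It averaged 25.7 ± 61.7 TPM in unsuffixed R9, 85.8 ± 263 TPM in suffixed R9 and 5.04 ± 18.2 TPM in WT cells, with a ratio to WT of 2.14 for unsuffixed R9 and 3.85 for suffixed R9 cells. Trim25, a ubiquitin ligase of the RIG-I pathway, was seen in 4 unsuffixed R9, 2 suffixed R9 and 3 WT cells, and 1 suffixed R9 cell at 347.7 TPM held 70.7% of that set's sum. Parp14, a mono-ADP-ribosyltransferase, was seen in 4 unsuffixed R9, 6 suffixed R9 and 4 WT cells. Ifi44 was seen in 2 unsuffixed R9, 3 suffixed R9 and 0 WT cells and stayed at or below 54.5 TPM.

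Antiviral effectors, the enzymes and RNA-binding proteins that act on viruses directly, were the emptiest group. Any of the 11 was seen in 11 of 32 unsuffixed R9 cells (34.4%, 18.6 to 53.2), 7 of 35 suffixed R9 cells (20%, 8.44 to 36.9) and 2 of the 22 WT cells (9.09%, 1.12 to 29.2), and the 3 intervals overlap. At least 3 effectors were seen in R9-ILC-37 (3), R9-ILC-21-1 (5) and R9-ILC-1-1 (3) and in no WT cell. Of the Ifit proteins, which bind foreign RNA, Ifit1 was seen in 1 unsuffixed R9 cell (105.6 TPM). Ifit2 was seen in 2 unsuffixed R9 cells (64.7 and 58.6 TPM) and 2 suffixed R9 cells (40.6 and 8.25 TPM). Ifit3 was seen in 3 unsuffixed R9 cells (2807, 40.4 and 21.1 TPM) and 1 suffixed R9 cell (468.2 TPM). All 3 Ifit genes were listed at 0 in every WT cell.

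The oligoadenylate synthetases activate the nuclease RNase L. Oas1a was seen in 3 unsuffixed R9, 6 suffixed R9 and 1 WT cell, at most at 37.6 TPM in unsuffixed R9, 243.1 TPM in suffixed R9 and 33.6 TPM in WT cells, and 4 of the 6 suffixed R9 cells had more than 4000 genes. Between the R9 series its ratio, unsuffixed over suffixed, was -2.73, and it was 1.37 in cells of 1000 to 4000 genes. Oasl2, a relative that carries ubiquitin-like domains, was seen in 4 unsuffixed R9 cells (18252, 1223, 104.9 and 28 TPM), 1 suffixed R9 cell (5.60 TPM) and 1 WT cell (17.4 TPM). Oas2 was seen in 1 suffixed R9 cell, and Oas3 in 1 suffixed R9 and 1 WT cell. Isg20, an RNA exonuclease, was seen in 2 unsuffixed R9 and 1 suffixed R9 cell, and Mx2 in 1 suffixed R9 cell.

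Membrane restriction factors were among the broadest groups. Bst2 (tetherin, chr8:71534255-71537456), which holds budding virus on the cell surface, was seen in 18 of 32 unsuffixed R9 cells (56.2%, 37.7 to 73.6), 27 of 35 suffixed R9 cells (77.1%, 59.9 to 89.6) and 19 of the 22 WT cells (86.4%, 65.1 to 97.1), and at 10 TPM in 18 unsuffixed R9, 20 suffixed R9 and 17 WT cells. Its median over all cells was 86.3 TPM in unsuffixed R9, 20.5 TPM in suffixed R9 and 108.2 TPM in WT cells, and its highest values were 1149 TPM in unsuffixed R9, 2237 TPM in suffixed R9 and 3275 TPM in WT cells. The sets overlapped over most of their range. The means of 200.2 ± 290 TPM in unsuffixed R9, 383.1 ± 640 TPM in suffixed R9 and 534.9 ± 917 TPM in WT cells gave a ratio to WT of -1.41 for unsuffixed R9 and -0.48 for suffixed R9 cells.

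The Ifitm proteins block fusion of viruses with endosomes. Ifitm1 was seen in 6 of 32 unsuffixed R9 cells (18.8%, 7.21 to 36.4), 12 of 35 suffixed R9 cells (34.3%, 19.1 to 52.2) and 0 of the 22 WT cells (up to 15.4%). Most suffixed R9 values were small, with a median of 2.75 TPM where seen, and at 10 TPM it was counted in 6 unsuffixed R9, 2 suffixed R9 and 0 WT cells. Ifitm2 was seen in 5 unsuffixed R9, 8 suffixed R9 and 8 WT cells. Its WT mean of 454.6 TPM is 95.6 TPM without WT-ILC-24, and the unsuffixed R9 ratio to WT of -3.11 was 3.42 in cells of 1000 to 4000 genes. Ifitm3 was seen in 7 unsuffixed R9, 9 suffixed R9 and 5 WT cells and averaged 84.7 ± 331 TPM in unsuffixed R9, 105.4 ± 386 TPM in suffixed R9 and 70.7 ± 224 TPM in WT cells. The Ifitm, Ifit, Oas and Gbp genes are families of close copies, so the split of reads among them is uncertain.

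The interferon-inducible GTPases, which attack the vacuoles of intracellular pathogens, were seen in every R9 cell and in 20 of 22 WT cells. Ifi47 (chr11:49076587-49096974) was seen in 27 of 32 unsuffixed R9 cells (84.4%, 67.2 to 94.7), 24 of 35 suffixed R9 cells (68.6%, 50.7 to 83.1) and 16 of the 22 WT cells (72.7%, 49.8 to 89.3). Its means were close, at 145.3 ± 173 TPM in unsuffixed R9, 210.1 ± 409 TPM in suffixed R9 and 187.6 ± 420 TPM in WT cells. Its distribution was not: the median over all cells was 71.0 TPM in unsuffixed R9, 1.86 TPM in suffixed R9 and 2.92 TPM in WT cells. At 10 TPM Ifi47 was counted in 27 of 32 unsuffixed R9 cells (84.4%, 67.2 to 94.7), 9 of 35 suffixed R9 cells (25.7%, 12.5 to 43.3) and 10 of the 22 WT cells (45.5%, 24.4 to 67.8). Unsuffixed R9 cells mostly held it at a middle level, whereas suffixed R9 and WT cells held a few values of up to 1457 TPM in suffixed R9 and 1750 TPM in WT cells beside many under 10 TPM. The scarcity of values under 10 TPM in unsuffixed R9 cells, given above, moves with this difference, and its part was not tested.

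Igtp (Irgm3, chr11:58199556-58207591) had a similar shape. It was seen in 22 of 32 unsuffixed R9 cells (68.8%, 50.0 to 83.9), 33 of 35 suffixed R9 cells (94.3%, 80.8 to 99.3) and 14 of the 22 WT cells (63.6%, 40.7 to 82.8), and at 10 TPM in 22 unsuffixed R9, 13 suffixed R9 and 11 WT cells. The medians were 46.0 TPM in unsuffixed R9, 4.04 TPM in suffixed R9 and 8.40 TPM in WT cells, and the highest values 783.2 TPM in unsuffixed R9, 2243 TPM in suffixed R9 and 837.3 TPM in WT cells. The ratio to WT was -0.32 for unsuffixed R9 and 1.07 for suffixed R9 cells. Ifi47 and Igtp were seen together in 18 unsuffixed R9, 22 suffixed R9 and 11 WT cells. Irgm1, a regulator of the other family members and of autophagy, was seen in 13 unsuffixed R9, 17 suffixed R9 and 9 WT cells, and at 10 TPM in 12 unsuffixed R9, 8 suffixed R9 and 3 WT cells. Its WT mean of 30.4 TPM is 7.45 TPM without WT-ILC-32. Leaving out each set's highest cell moved its ratio to WT from -0.09 to 1.57 for unsuffixed R9 and from 2.12 to 3.72 for suffixed R9 cells.

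The guanylate-binding proteins were rarer. Gbp2 was seen in 7 unsuffixed R9, 4 suffixed R9 and 8 WT cells, at 10 TPM in 7 unsuffixed R9, 1 suffixed R9 and 5 WT cells, and averaged 8.23 ± 17.6 TPM in unsuffixed R9, 12.5 ± 72.3 TPM in suffixed R9 and 51.1 ± 155 TPM in WT cells. A single suffixed R9 cell at 428.1 TPM held 97.8% of that set's sum. Gbp7 was seen in 8 unsuffixed R9, 5 suffixed R9 and 4 WT cells, at most at 95.1 TPM in unsuffixed R9, 715.3 TPM in suffixed R9 and 6.00 TPM in WT cells. Its ratio to WT was 2.46 for unsuffixed R9 and 4.51 for suffixed R9 cells. Gbp3 was seen in 1 unsuffixed R9 cell (24.2 TPM) and 1 WT cell (339.0 TPM), and Iigp1, of the same family as Igtp, in 1 unsuffixed R9 cell (77.4 TPM).

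**Figure D5:**
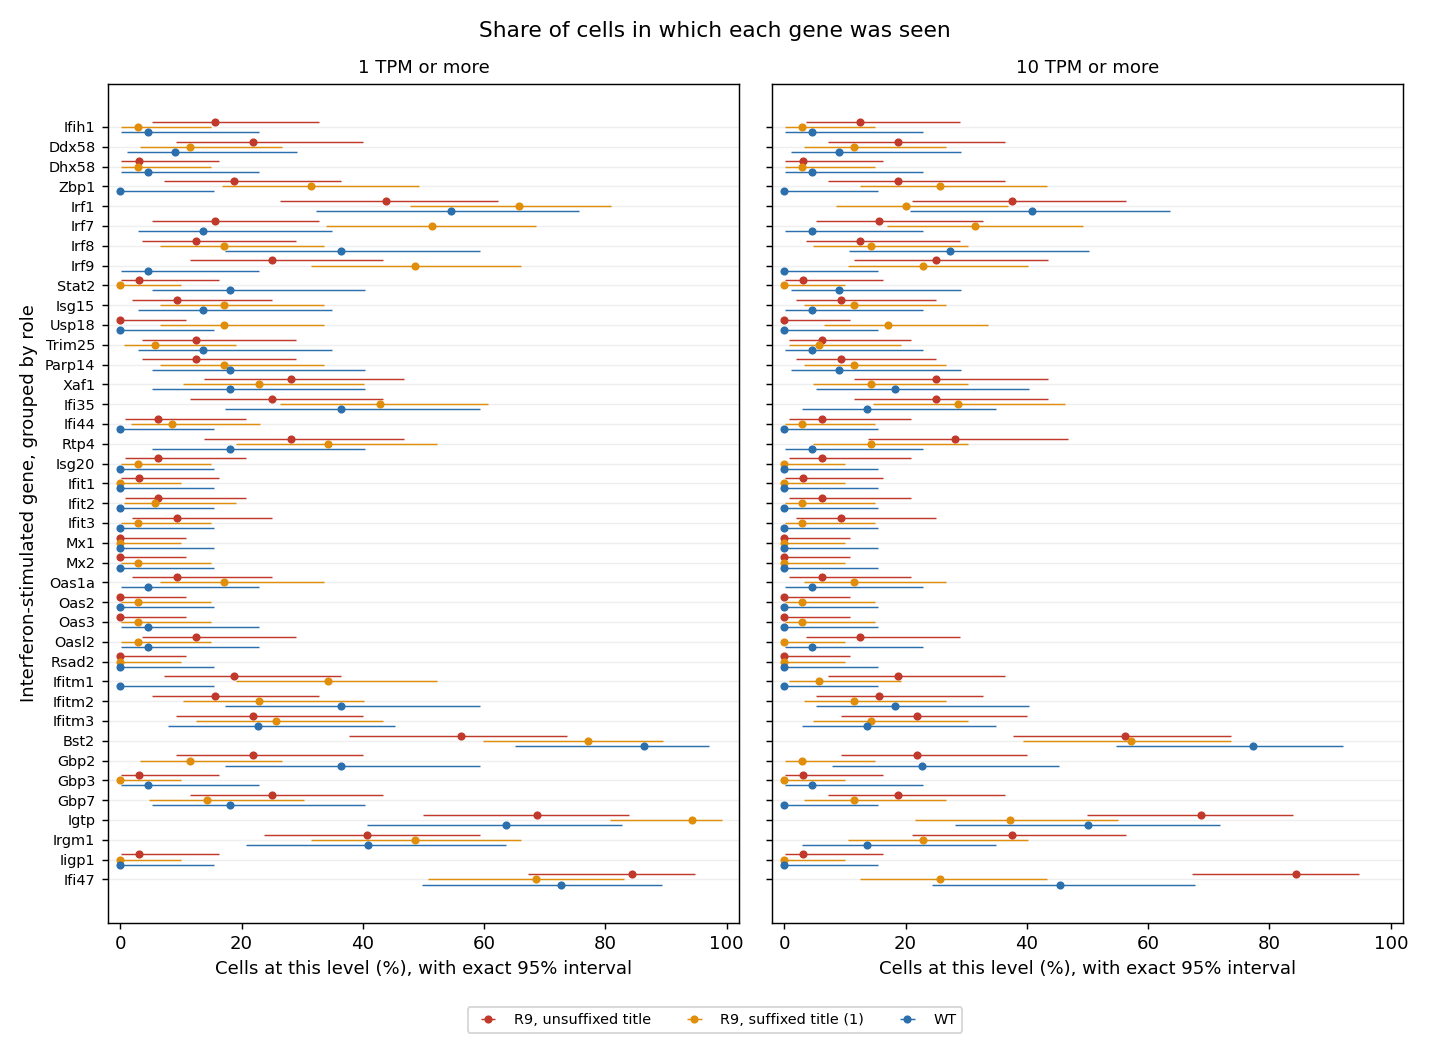
Percentage of cells in which each gene reached 1 TPM (left) and 10 TPM (right), with exact 95% intervals for counting error, for unsuffixed R9, suffixed R9 and WT cells from top to bottom within each gene. Igtp in suffixed R9 cells stands at 94.3% on the left and 37.1% on the right, while unsuffixed R9 cells stay at 68.8%. Zbp1, Usp18 and Ifitm1 have no WT cell at either limit.

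The rest of the pathway was described from lists chosen by role. All 9 measured interferon genes, among them Ifnb1, Ifna4 and Ifng, were listed at 0 in every cell. Of 6 receptor genes 5 were seen, and Ifnlr1, the chain specific to interferon lambda, was listed at 0 throughout. Ifngr1 was seen in every cell with a median of 324.4 TPM in unsuffixed R9, 552.7 TPM in suffixed R9 and 191.2 TPM in WT cells, and R9-ILC-35 held 96.8% of the unsuffixed R9 sum. Ifnar1 was seen in 7 unsuffixed R9, 6 suffixed R9 and 3 WT cells, and Ifnar2 in 10 unsuffixed R9, 5 suffixed R9 and 3 WT cells. The chains of the type I receptor were thus seen in a minority of each set. Jak1 was seen in 24 unsuffixed R9, 19 suffixed R9 and 16 WT cells.

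All 12 measured genes that lead to interferon production were seen in some cell. Tmem173 (STING), the adaptor for cytosolic DNA, was seen in 26 unsuffixed R9, 24 suffixed R9 and 18 WT cells. Myd88, the adaptor of Toll-like receptors, was seen in 10 unsuffixed R9, 30 suffixed R9 and 9 WT cells and averaged 27.2 ± 54.4 TPM in unsuffixed R9, 309.4 ± 474 TPM in suffixed R9 and 3.43 ± 6.45 TPM in WT cells. Of 6 negative regulators, Socs1, which blocks Jak kinases, was seen in 31 unsuffixed R9, 30 suffixed R9 and 19 WT cells and averaged 311.6 ± 322 TPM in unsuffixed R9, 158.6 ± 247 TPM in suffixed R9 and 106.2 ± 196 TPM in WT cells. Of 30 further induced genes that were measured 28 were seen. Psmb8, a catalytic subunit of the immunoproteasome, was seen in all 89 cells with a median of 644.1 TPM in unsuffixed R9, 1023 TPM in suffixed R9 and 507.4 TPM in WT cells. Ly6e, a membrane protein that limits coronavirus entry, was also seen in all 89 cells, with a median of 1621 TPM in unsuffixed R9, 4739 TPM in suffixed R9 and 1055 TPM in WT cells. Of the 26 further induced genes that passed the filter between unsuffixed R9 and WT cells 5 (19.2%) were higher and 7 (26.9%) lower in unsuffixed R9, against 26.6% and 44.5% of all genes. Of the 27 that passed between suffixed R9 and WT cells 14 (51.9%) were higher and 3 (11.1%) lower in suffixed R9, against 48.8% and 20.4% of all genes.

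Markers of other cell types differed between the sets. The macrophage and dendritic list was seen in all 32 unsuffixed R9 cells (median sum 444.5 TPM, range 39.99 to 3920), 12 of 35 suffixed R9 cells (median 0, up to 1874) and 11 of the 22 WT cells (median 1.49, up to 4834). Of its 8 measured genes, Siglech was listed below 1 TPM in all sets and Itgax in both R9 series. The mast cell list had a median sum of 1459 TPM in unsuffixed R9, 107.4 TPM in suffixed R9 and 6.18 TPM in WT cells, and it includes Kit, which ILCs also express. Kit was seen in 27 unsuffixed R9, 31 suffixed R9 and 14 WT cells. The protease genes of the list were seen almost only in unsuffixed R9 cells: Tpsb2 in 31 unsuffixed R9 and no suffixed R9 or WT cells, Cpa3 in 30 unsuffixed R9, 3 suffixed R9 and 0 WT cells, Cma1 in 28 unsuffixed R9, 0 suffixed R9 and 1 WT cell, and Mcpt4 in 8 unsuffixed R9 and no suffixed R9 or WT cells. The epithelial list had a median sum of 317.0 TPM in unsuffixed R9, 29.4 TPM in suffixed R9 and 10469 TPM in WT cells (up to 308306, 12710 and 200707 TPM in these sets). The part of these transcripts in the levels of the 39 genes was not tested, and the title series and any batch cannot be told apart.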

How the data were processed

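Single cells were sorted from mouse intestine and sequenced. Per the labels' protocols polyA RNA was amplified (kit Discover-sc WTA Kit V2) and made into libraries (kit TruePrep DNA Library Prep Kit V2). The authors deposited TPM for 23420 gene symbols in 2 tables, normalized separately, and the submitters' processing notes name StringTie 1.3.4, HISAT2 2.1.0, SAMtools 0.1.19, bcl2fastq and the build mm10. Read depth is unknown, because TPM keeps none. All 98 columns were used. WT columns were averaged where Pearson's r of log2(TPM + 1) over shared genes exceeded 0.8 (joined pairs 0.844 to 0.995, highest unjoined WT pair 0.738, genes shared by a joined pair 24.0% to 92.2%), and that 2 such columns are 1 cell is an assumption. Each cell is 1 deposited sample and no animal is named, so neither p-values nor standard errors were computed.

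Detection was 1 TPM, ratios used a pseudocount of 1 TPM and so understate differences of low genes, and shares have 95% Clopper-Pearson intervals for counting error. The ratio calculation was tested on simulated data, whose setting and outcome are not given here. Many members were unseen in most cells or rested on single cells. Nothing about their ratios is concluded from that test. Members and lists were chosen with earlier results of these data known. The detection of every member is given, and members that average at least 10 TPM, or are seen in 25% or more of the cells, in any set are described with values. Of each other pathway list, genes were named among the 6 with the highest mean. Cells named are the 3 of each set with most members (more where tied), the 3 with the highest sum and those that hold a described gene's highest value. R9-ILC-37 was added after its values were seen. Alternatives varied pseudocount, kind of mean, scaling, detection limit, filters and single cells left out. Coordinates are GRCm38 (GENCODE), and promoter sequences are RefSeq's for GRCm38.p6. Work was done in Python 3.11.15 with matplotlib 3.10.9, scipy 1.17.1, pandas 2.3.3 and numpy 2.4.6. Some genes that these rules name are not reported here.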

Additional observations from a re-analysis of the deposited data

How the results depend on the processing

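No paired analysis was possible because the numbers in the titles only name cells and no test was run. Values below are log2 ratios of means, or counts of members past a ratio of 1. For unsuffixed R9 over WT cells, the number of higher members was 15 and became 7 with a pseudocount of 10 TPM and 5 with means of log2 values, where 2 were lower. The share of all genes called higher shrank as well, from 26.6% to 9.43% and 9.98%, and with means of log2 values the share lower went from 44.5% to 9.71%. Its median ratio of 0.55 became 1.55 without each gene's highest cell and 1.47 in cells of 1000 to 4000 genes. The median of all genes moved too, from -0.67 to 0.21 and -0.27. For suffixed R9 over WT cells, the median ratio of 1.27 became 2.11 and 0.61 with pseudocounts of 0.1 and 10 TPM, 0.26 with means of log2 values, 2.24 without each gene's highest cell and 1.94 for means of 5 TPM or more. In the same order the median of all genes went from 0.94 to 1.03, 0.44, 0.21, 1.56 and 1.08. Its 17 higher members became 6, and its 5 lower members 2, with means of log2 values. The shares of all genes then went from 48.8% to 17.7% higher and from 20.4% to 3.31% lower. Without each gene's highest cell 3 members were lower, and 12% of all genes were. For unsuffixed over suffixed R9 cells, the 8 higher members became 4 with a pseudocount of 10 TPM or means of 5 TPM or more, 2 with means of log2 values and 3 without the 4 cells above 10000 TPM, an alternative added after seeing the data. The shares of all genes called higher were then 5.88%, 11.9%, 5.99% and 15.9% in the order of these 4 settings, against 16.1%. Its 16 lower members became 4 with means of log2 values (18.5% of all genes, against 64.9%), and its median ratio of -1.10 became 0.036 with them and -0.40 with dominant genes removed, a scaling that moved the median of all genes from -1.61 to -1.18. Means of log2 values reversed Ifitm1 (0.074), Rtp4 (0.036), Ddx58 (0.036), Gbp7 (0.025) and Igtp (0.25) between the R9 series. Ifitm1 also reversed without each gene's highest cell (0.39), and Oas1a in cells of 1000 to 4000 genes (1.37). Without the 4 cells, Isg15 (-3.23), Ifit3 (-2.17) and Xaf1 (-0.34) reversed between the R9 series, and Isg15 (-2.44) against WT. Ifitm2 reversed for unsuffixed R9 over WT in cells of 1000 to 4000 genes (3.42). Where no construction above shows it, the cause was not tested. Mean sums in unsuffixed R9 cells ranged from 928.6 TPM without the 4 cells to 7329 TPM after scaling to 262 genes seen in common. Depth is unknown, so a gene listed at 0 cannot be told from one missed, and WT counts rest on 22 cells.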
